A study of Homo sapiens with 4 samples.

Results

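The genes described here are weakly transcribed genes that lie 10 to 50 kb downstream of an active gene on the same strand, in U2OS cells, a human osteosarcoma line. They were chosen by 3 conditions. The deposited entry of a gene overlapped no other gene entry on its strand. Its mean level in isotonic medium was under 0.5 RPKM (reads per kb of gene and per 1000000 reads). The nearest upstream gene on its strand with a mean isotonic level of at least 1 RPKM, called the active neighbour here, ended 10 to 50 kb before its start. Overlap and distance were read from the deposited entries, and some of these end short of the annotated gene. Of 57428 genes, 45219 had no such overlap on their strand, 37960 of these were under 0.5 RPKM, and 2342 met the distance condition. Because the isotonic level chose these genes, the comparison of hypertonic with isotonic levels is a description, and so is any contrast with the sense level that this limit capped. The same limit holds at every distance, and contrasts between distances were put to a permutation test. They too rest on capped isotonic levels, and 2 against 2 libraries cannot give a small p. No conclusion is drawn from that test.

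The assay was Bru-seq, in which living cells are given bromouridine, an analogue of uridine, so that RNA made in that time can be pulled down with an antibody and sequenced. The hypertonic group was grown in medium raised to 300 mM sodium with concentrated phosphate-buffered saline, and the isotonic group in medium at 150 mM sodium with the same volume of ordinary saline, with 2 libraries in each. All 4 libraries came from cells stably overexpressing GFP-DCP1a, a decapping cofactor fused to a fluorescent protein, which received 2 mM bromouridine for 30 min and were harvested without a chase. The labels give neither the length of exposure to hypertonic medium nor whether the replicates were separate cultures, so p-values measure only how far these libraries spread, and that spread may be technical. In bulk RNA such as this, fewer transcribing cells and less RNA per cell cannot be told apart.

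Total counts were 28367788 in hypertonic replicate 1, 23048409 in hypertonic replicate 2, 44888307 in isotonic replicate 1 and 23410787 in isotonic replicate 2. Levels are given as normalised RPKM, the count per kb of gene and per 1000000 sense-strand counts scaled by TMM factors of 0.946, 1.22, 0.974 and 0.888 in the same order. A count of 3 in a gene of 1 kb, taken as the floor, stood for 0.126, 0.118, 0.0734 and 0.155 normalised RPKM, and covers counting error only. Of markers of this mesenchymal line, VIM, SPARC, CD44, COL1A1 and RUNX2 had isotonic means of 17.2, 3.28, 2.78, 2.31 and 0.543 RPKM, while TWIST1 was at 0. Epithelial EPCAM and CDH1 and leukocyte PTPRC were at 0.0950, 0.00511 and 0.0217 RPKM, and CD3E and ALB at 0. DCP1A, the gene the cells overexpress, measured 4.89 and 3.10 normalised RPKM in the hypertonic libraries and 4.41 and 9.81 in the isotonic ones, and reads of the transgene were not told apart from those of the chromosomal gene.

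RNA polymerase II normally transcribes past the end of a gene before it is released. The cleavage and polyadenylation machinery recognises a hexamer, most often AAUAAA, cuts the RNA after it, and the exonuclease XRN2 degrades the trailing RNA. Nascent transcripts that run far past gene ends have been described in human cells after osmotic stress, heat shock and viral infection, and a gene that lies in the path of such a transcript can be read without use of its own promoter. The deposited tables hold genes only, so the stretch between a neighbour and the gene behind it was not analysed here.

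The 30 bases at or near the annotated 3′ ends of 6 active neighbours are shown because the distances behind these 6 start at those ends. Behind some other neighbours the distance starts short of the annotated end. They are those of genes named first in a distance bin, together with EPB41L5 and MT1E, which are among the neighbours with the most genes behind them. Bases are from the GENCODE release 29 transcripts on GRCh38, 5′ to 3′, with the polyadenylation hexamer (AATAAA or ATTAAA in DNA letters, searched on the transcribed strand in the last 50 bases) in capitals where 1 was found.
ANXA7 end (chr10:73375101-73375130, minus strand): ttagattccacgtataaatggtatacaata
HCFC1 end (chrX:153947557-153947586, minus strand): tgaacaATTAAAagactttttttgaaataa
TRIM27 end (chr6:28903002-28903031, minus strand): gtttaaaAATAAActgaatatggatgttta
ILF2 end (chr1:153661788-153661817, minus strand): ttattgAATAAAatgattctatcaacactg
EPB41L5 end (chr2:120179090-120179119, plus strand): ctattcaAATAAAccttcgtgagacattca
MT1E end (chr16:56627083-56627112, plus strand): gactgacAATAAAaacaattttgactttaa
ANXA7 had neither hexamer in its last 50 bases. AATAAA stood in the last 50 bases of 63.0% of the 1534 protein-coding neighbours, of 62.3% of the 3418 other active protein-coding genes and of 58.5% of all 19744 protein-coding genes. With ATTAAA as the other permitted hexamer the shares were 77.4%, 76.7% and 71.6%. The neighbours therefore ended in these hexamers about as often as other active genes did.

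The 300 bases around the starts of 2 of the genes behind ANXA7 and ILF2 are shown as 1 promoter with more and 1 with fewer CG dinucleotides. They are RefSeq sequences on GRCh38.p14, from 250 bases before to 50 bases after the RefSeq start, with CG in capitals. The S100A14 entry measured here runs to 153616986 on the minus strand. The RefSeq window of S100A14 therefore lies inside that entry and not at its start.
CFAP70 start (chr10:73358815-73359114, minus strand): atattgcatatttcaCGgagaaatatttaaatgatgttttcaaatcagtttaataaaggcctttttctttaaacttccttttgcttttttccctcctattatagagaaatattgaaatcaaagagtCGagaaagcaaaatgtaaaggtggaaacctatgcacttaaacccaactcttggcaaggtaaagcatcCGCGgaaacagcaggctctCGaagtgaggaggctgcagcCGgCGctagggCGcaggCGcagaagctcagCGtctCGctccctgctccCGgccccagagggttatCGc
S100A14 start (chr1:153616276-153616575, minus strand): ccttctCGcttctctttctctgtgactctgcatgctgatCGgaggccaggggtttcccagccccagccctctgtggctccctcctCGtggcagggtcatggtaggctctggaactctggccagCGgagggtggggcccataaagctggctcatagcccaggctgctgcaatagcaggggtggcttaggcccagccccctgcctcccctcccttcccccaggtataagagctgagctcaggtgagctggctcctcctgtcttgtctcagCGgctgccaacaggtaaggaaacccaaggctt
The CFAP70 window held 13 CG dinucleotides, and the S100A14 window held 5. Neither window held TATAAA on either strand. Of the genes studied here, 697 had a RefSeq promoter, with a median observed over expected CG ratio of 0.608, against 0.877 for 1270 of their neighbours, 0.447 for 7111 genes over 100 kb after an active gene or with none upstream and 0.580 for all 27305 promoters. TATAAA, read on both strands, stood in 7.60% of the 697 windows, 5.83% of the neighbours' windows and 12.0% of all windows. A match, or the lack of 1, describes these letters only.

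The 2342 genes lay behind 1800 different neighbours, of which 1534 were protein coding, on 23 chromosomes. A neighbour had 1 such gene behind it in 1391 cases and 2 in 311, and 951 of the genes shared a neighbour with another, so they are not independent of each other. By annotation 871 were protein coding, 699 long noncoding, 559 pseudogenes and 213 small RNA genes, and their median length was 3017 bp. In all, 324 had 0 counts in all 4 libraries.

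The summed nascent RNA of these genes was higher in both hypertonic libraries, and the difference was largest at 10 to 20 kb in both. It shrank with each further 10 kb in hypertonic replicate 1, but not in hypertonic replicate 2, where it was larger at 40 to 50 kb than at 30 to 40 kb. Summed over all 2342 genes, the level was 0.352 and 0.197 normalised RPKM in hypertonic replicates 1 and 2, against 0.150 and 0.156 in isotonic replicates 1 and 2. Hypertonic replicate 1 was thus 2.30-fold and replicate 2 was 1.29-fold above the isotonic mean, and the groups did not overlap. The means were 0.274 ± 0.109 and 0.153 ± 0.00419 normalised RPKM (SD, n = 2 each), so the spread between the hypertonic libraries was of the same order as the difference between the groups. Without any scaling between libraries, these genes took 1.28 and 0.924% of the sense counts of the hypertonic libraries and 0.562 and 0.532% of those of the isotonic libraries.

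At 10 to 20 kb (662 genes) the summed level was 0.578 and 0.247 normalised RPKM in the hypertonic libraries and 0.164 and 0.178 in the isotonic ones, 3.38-fold and 1.45-fold above the isotonic mean. At 20 to 30 kb (600 genes) it was 0.289 and 0.186 in the hypertonic and 0.146 and 0.143 in the isotonic libraries, 2.01-fold and 1.29-fold. The fold in hypertonic replicate 1 went on falling, to 1.85 at 30 to 40 kb and 1.57 at 40 to 50 kb. With TMM, hypertonic replicate 2 was lower throughout and uneven, with 1.11-fold at 30 to 40 kb (583 genes) and 1.27-fold at 40 to 50 kb (497 genes). With total counts it was the higher of the pair at 40 to 50 kb, at log2 ratios of 0.74 against 0.67. The same held on the deposited RPKM scale, at 0.61 against 0.45. Over all 2342 genes the log2 ratio of hypertonic replicate 2 was 0.36 with TMM and 0.76 with total counts. That of hypertonic replicate 1 was 1.20 and 1.22. Both replicates were highest next to the neighbour, where 821 genes under 10 kb, chosen by the same other conditions, were at 3.63-fold and 1.94-fold. Beyond the window the folds were 1.29 and 1.20 at 50 to 100 kb (2277 genes) and 1.22 and 1.01 for the 32520 genes farther than 100 kb or with no active gene upstream. With total counts in place of TMM, hypertonic replicate 2 stood higher there, at log2 ratios of 0.65 and 0.41 in these groups, against 0.26 and 0.02 with TMM.

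**Figure D1:**
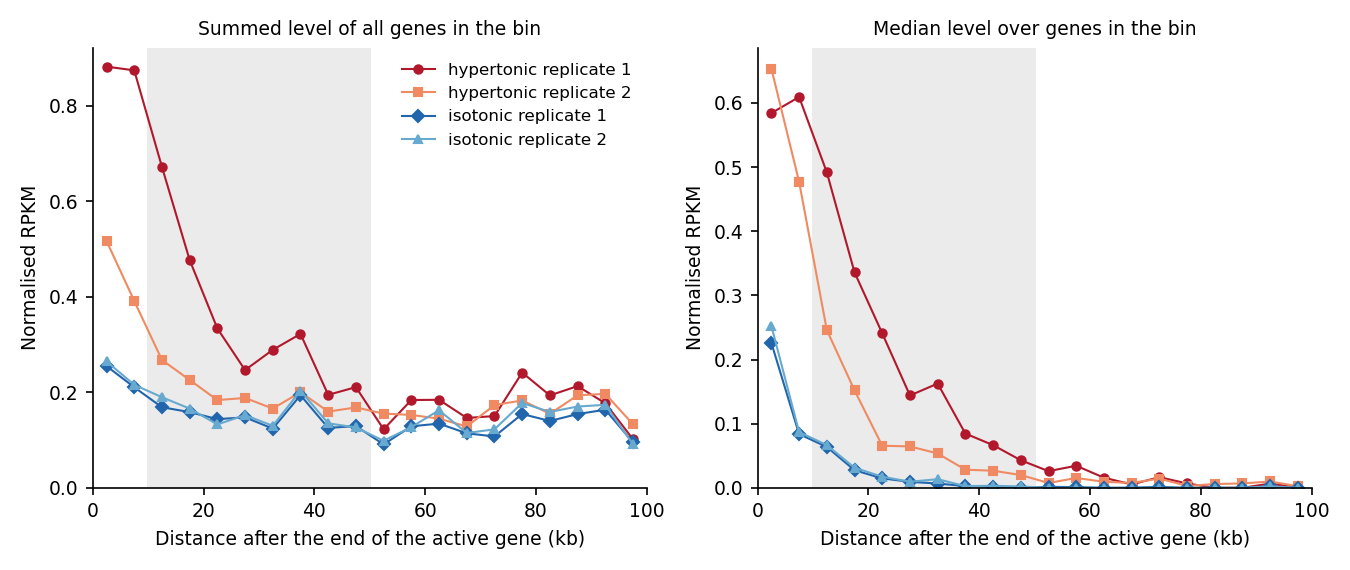
Normalised RPKM of weakly transcribed genes in bins of 5 kb after the end of the active neighbour (x axis, kb), 1 line per library, as the summed level (left) and the median over genes (right); the window of 10 to 50 kb is shaded. Hypertonic replicate 1 starts at 0.881 and hypertonic replicate 2 at 0.517 summed normalised RPKM under 5 kb, both fall with distance, and the isotonic libraries start at 0.255 and 0.265.

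The median over genes, which gives a long gene no more weight than a short one, put both hypertonic libraries above both isotonic ones in each of the 4 bins. At 10 to 20 kb it was 0.447 and 0.191 normalised RPKM in the hypertonic libraries and 0.0465 and 0.0495 in the isotonic ones. At 40 to 50 kb it was 0.0560 and 0.0214 in the hypertonic libraries and 0.00126 and 0.00227 in the isotonic ones. The difference between the groups therefore fell with distance. The ratio did not: over the isotonic mean of medians it was 9.30 in hypertonic replicate 1 and 3.97 in replicate 2 at 10 to 20 kb, and 31.7 and 12.2 at 40 to 50 kb, where the isotonic medians are close to 0. The hypertonic libraries had nearly equal medians under 10 kb, 0.591 and 0.572, and parted beyond it.

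The share of genes at or above 0.5 normalised RPKM tells the same in counts of genes. It was 28.0 and 16.8% in the hypertonic libraries against 5.00 and 5.51% in the isotonic ones, whose mean had to be under 0.5 RPKM by choice. At 10 to 20 kb it was 45.6 and 26.6% against 7.40 and 7.25%, and at 40 to 50 kb 15.7 and 10.9% against 3.42 and 3.22%. Genes with any read made up 78.8 and 71.4% in the hypertonic libraries and 58.8% in each of the isotonic ones, which differ from them in depth.

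Both hypertonic libraries lay above both isotonic ones in 931 of the 2342 genes (39.8%), and the same held for 14.2% of all 57428 genes. By distance the share was 58.9% at 10 to 20 kb, 39.5% at 20 to 30 kb, 30.0% at 30 to 40 kb and 26.0% at 40 to 50 kb, and 12.2% farther than 100 kb. Both lay below both isotonic libraries in 30 genes (1.28%), against 8.32% of all genes. Since the choice fixed a low isotonic level, nothing is read from the difference between these genes and all genes, which include every level. Taken apart, hypertonic replicate 1 was above both isotonic libraries in 63.6% of these genes (28.1% of all genes), and hypertonic replicate 2 in 54.7% (29.6% of all genes).

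The fall with distance was set against the isotonic libraries by a contrast in which library scaling cancels, the level at 10 to 20 kb over that at 40 to 50 kb. It was 2.85 and 1.51 in the hypertonic libraries and 1.29 and 1.36 in the isotonic ones. The groups did not overlap, and the mean difference was 0.65 on the log2 scale, with p = 0.3333 in an exact two-sided permutation test, the smallest p that 2 against 2 libraries allow. This contrast turned under other settings: with neighbours of at least 2 RPKM it was -0.11 in hypertonic replicate 2 relative to the isotonic mean, and with medians in place of sums the mean difference was -1.75. It also moved with the isotonic limit, to 0.81 at 0.25 RPKM and 0.58 at 1 RPKM. Taken over genes farther than 100 kb, the level of the 2342 genes was 2.84 and 1.92 times as high in the hypertonic libraries and 1.50 and 1.52 times in the isotonic ones (mean log2 difference 0.63, exact two-sided permutation p = 0.3333). Across the 2342 genes, Spearman's rank correlation of level with distance was -0.33 and -0.26 in the hypertonic and -0.17 and -0.16 in the isotonic libraries; the genes share libraries and often neighbours, and no test was made.

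The other side of an active gene gave a reference at the same distance. The 1973 genes that ended 10 to 50 kb before the start of an active gene, with none ending within 50 kb upstream of them, were at 0.159 and 0.180 normalised RPKM in the hypertonic libraries and 0.137 and 0.139 in the isotonic ones. Their folds were 1.15 and 1.30, with hypertonic replicate 2 the higher of the pair. In hypertonic replicate 1 the genes downstream of an active gene, at 2.30-fold, thus stood well above those before 1, while in hypertonic replicate 2 both sides were at about the same fold, 1.29 and 1.30. In the share of genes with both hypertonic libraries above both isotonic ones, the sides differed by more, 39.8% downstream against 17.5% upstream. Only a gene with reads in both hypertonic libraries can be counted in this share. The upstream genes were shorter, with a median of 1681 bp against 3017 bp. Fewer of them had any read in the isotonic libraries, 42.8 and 38.5% against 58.8% in each. The part of length and detection was not tested.

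**Figure D2:**
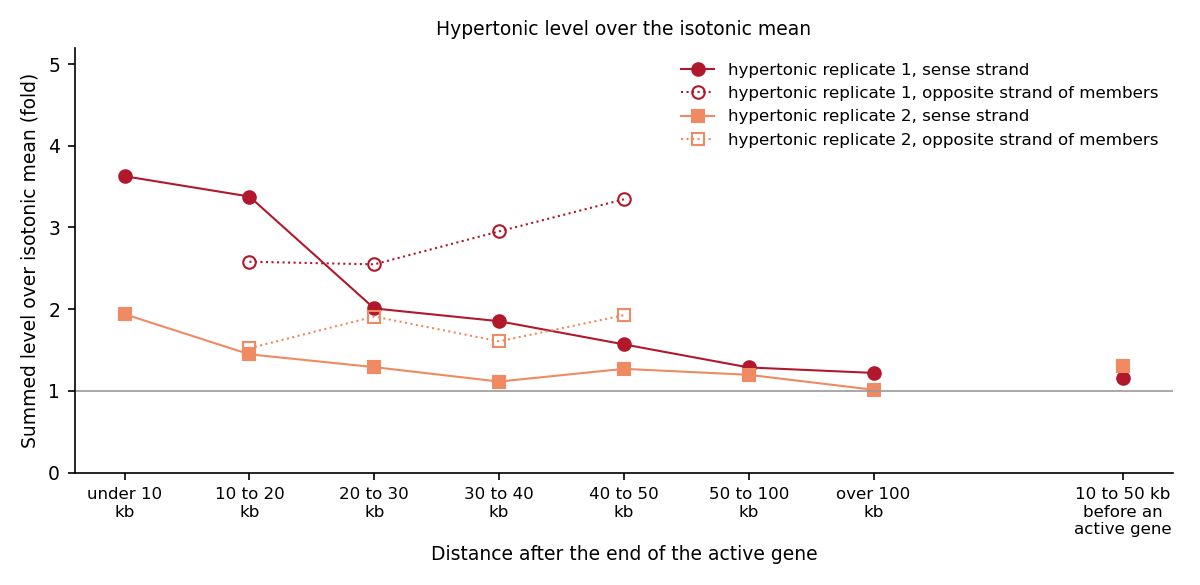
Summed level in each hypertonic library over the mean of the isotonic libraries (y axis, fold; 1 is marked by a line) by distance after the active neighbour, with genes before an active gene at the right; filled points are the sense strand and open points the opposite strand of the genes at 10 to 50 kb. Sense folds in hypertonic replicates 1 and 2 are 3.38 and 1.45 at 10 to 20 kb and 1.57 and 1.27 at 40 to 50 kb, and the opposite-strand folds do not fall with distance.

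Reads on the opposite strand of the same genes were also higher in the hypertonic libraries. An opposite-strand entry existed for 1843 of the genes, and its summed level was 0.117 and 0.0705 normalised RPKM in the hypertonic libraries and 0.0380 and 0.0454 in the isotonic ones, 2.79-fold and 1.69-fold. The sense strand of these 1843 genes was at 2.23-fold and 1.27-fold. The opposite-strand fold did not fall with distance: it was 2.58 and 1.52 at 10 to 20 kb and 3.34 and 1.93 at 40 to 50 kb. Sense over opposite strand was 3.01 and 2.84 in the hypertonic libraries and 4.07 and 3.54 in the isotonic ones. The isotonic sense level in this ratio was capped by the choice, and its direction turns with that cap: the mean log2 difference is -0.37 at 0.5 RPKM and 0.066 at 0.25 RPKM, and in hypertonic replicate 1 alone it is 0.31 at 0.25 RPKM and 0.071 with neighbours of at least 2 RPKM. No test of it is given.

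Strand separation of the libraries moved in the same direction. At 4857 active protein-coding genes the opposite strand stood at 3.44 and 1.93% of the sense level in the hypertonic libraries and at 1.01 and 1.00% in the isotonic ones. The labels mention a strand-specific step for certain samples without saying which, and the part of strand separation in the results above was not tested. Opposite-strand reads were also most abundant where an active gene on that strand ended nearby, though their fold did not follow that distance. Among the 1347 genes with no annotated gene on the opposite strand, the 117 that lay 10 to 50 kb after the end of an active opposite-strand gene had 0.257 and 0.105 normalised RPKM on that strand in the hypertonic libraries and 0.0439 and 0.0544 in the isotonic ones, 5.23-fold and 2.14-fold. The 67 within 10 kb of such an end had 0.656 and 0.384 in the hypertonic libraries and 0.237 and 0.260 in the isotonic ones, 2.64-fold and 1.55-fold. The 97 at 50 to 100 kb had 0.0760 and 0.0440 in the hypertonic libraries and 0.0149 in each isotonic one, 5.10-fold and 2.95-fold. The 1066 that lay over 100 kb from such an end had 0.0435 and 0.0336 in the hypertonic libraries and 0.0191 and 0.0247 in the isotonic ones, 1.98-fold and 1.53-fold. The sense strand of the 1347 genes was at 2.47-fold and 1.36-fold.

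The level of a downstream gene was also set against the gene upstream of it. The choice required less than 0.5 RPKM of the gene and at least 1 RPKM of the neighbour in the isotonic mean, so a mean isotonic level of 50% of the neighbour was not possible and the values that follow are a description. The median level as a percentage of the neighbour was 12.1 and 3.31% in the hypertonic libraries and 0.461 and 0.580% in the isotonic ones. At 10 to 20 kb it was 29.1 and 8.78% against 1.74 and 1.82%, and at 40 to 50 kb 3.42 and 1.00% against 0.0501 and 0.0741%. The groups did not overlap in any of the 4 bins. A level of at least 50% of the neighbour was reached by 494 and 138 genes in the hypertonic libraries and by 14 and 16 in the isotonic ones. The gene exceeded its neighbour in 209 and 28 cases in the hypertonic libraries and in 0 and 3 in the isotonic ones.

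Part of that ratio lies with the neighbours, which were themselves lower. Of 1751 neighbours tested, the fitted fold change was below 0 in 1394 and above 0 in 357. The median log2 fold change was -0.37, and it was also -0.37 over all 6560 active genes tested. The median neighbour level over the 2342 genes was 1.50 and 1.93 normalised RPKM in the hypertonic libraries and 2.18 and 2.20 in the isotonic ones. Neighbours were chosen for a high isotonic level, so this fall is a description too.

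**Figure D3:**
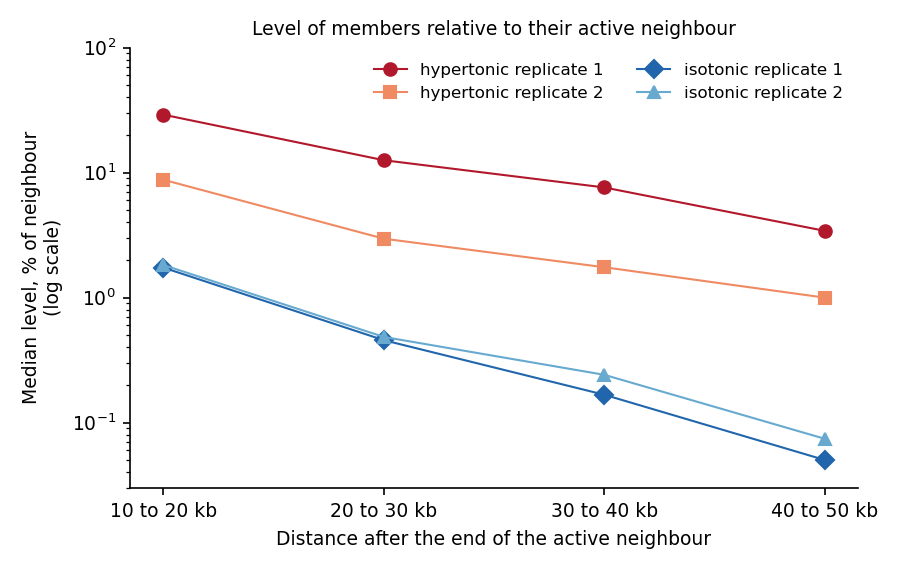
Median level of the downstream genes as a percentage of their active neighbour in the same library (y axis, log scale) in the 4 distance bins, 1 line per library. Hypertonic replicate 1 is at 29.1% at 10 to 20 kb and 3.42% at 40 to 50 kb and lies above hypertonic replicate 2 in every bin; both isotonic libraries are under 2%.

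Holding the neighbour constant gave the same order. Of 730 nearer and farther pairs of genes behind 1 neighbour, the nearer had the higher level in 67.7% of the 616 pairs that differed in hypertonic replicate 1 and in 61.0% of 590 in hypertonic replicate 2. The share was 55.5% of 488 and 55.0% of 491 in the isotonic libraries. The level of a gene followed that of its neighbour only weakly, with Spearman's rank correlations of 0.14 and 0.08 in the hypertonic and 0.00 and -0.01 in the isotonic libraries over 2342 genes. Between the hypertonic libraries the levels of the 2342 genes had a rank correlation of 0.56, and between the isotonic ones it was 0.76. Hypertonic replicate 1 was above replicate 2 in 56.1% of the genes and below it in 28.8%.

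The genes named next are, in each bin, the 5 with the smallest p in edgeR, and so were picked for their difference. In all 20 both hypertonic libraries lay above both isotonic ones, and in 16 hypertonic replicate 1 was above replicate 2. Their levels were 0.0848 to 3.87 normalised RPKM in hypertonic replicate 1 and 0.0414 to 3.81 in replicate 2, and at most 0.197 and 0.0553 in the isotonic libraries. No adjusted p of theirs passed the threshold of 0.05 in edgeR with Benjamini-Hochberg adjustment (0.192 to 0.241), while 17 of the 20 passed it in DESeq2. DESeq2 called 3.32% of all tested genes higher, and these 20 were picked by their p.

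At 10 to 20 kb, CFAP70 (ENSG00000156042, chromosome 10, 73253759 to 73358859, minus strand), which encodes a protein of cilia and flagella, starts 16.2 kb after ANXA7, a calcium-dependent membrane-binding annexin. It measured 0.351 and 0.157 normalised RPKM in the hypertonic libraries and 0.0149 and 0.0167 in the isotonic ones, which made a log2 fold change of 4.01 with an SE of 0.68 over 2 libraries per group. The groups did not overlap, and ANXA7 itself was at 2.37 and 1.93 in the hypertonic and 2.38 and 1.98 in the isotonic libraries. The opposite strand of CFAP70 stood at 0.0145 and 0.00624 normalised RPKM in the hypertonic and 0.00630 and 0.00694 in the isotonic libraries. FNDC7, a gene for a fibronectin type III domain protein 10.9 kb after the splicing factor gene PRPF38B, measured 3.87 and 0.200 normalised RPKM in the hypertonic libraries and 0.00814 and 0.00514 in the isotonic ones. FNDC7 reached 91.6% of its neighbour in hypertonic replicate 1 and 2.24% in hypertonic replicate 2, so the hypertonic libraries differed widely from each other at this gene.

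ADAM30, of the ADAM metalloprotease family, had 164 and 41 reads in the hypertonic libraries and 1 and 0 in the isotonic ones. The noncoding gene AL358075.1, 10.7 kb after the kinase gene MAST2, had 73 and 59 reads in the hypertonic libraries and 0 and 1 in the isotonic ones, and stood at 111 and 104% of MAST2 in the hypertonic libraries. CNTD1, known from meiotic crossing over in mice, lies 19.2 kb after VPS25, an ESCRT-II subunit, and had 88 and 58 reads in the hypertonic libraries and 1 and 2 in the isotonic ones. All 3 were at or near 0 in isotonic medium and had 41 or more reads in each hypertonic library.

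At 20 to 30 kb, ARHGAP4 (chromosome X, 153907367 to 153926260, minus strand), a gene for a GTPase-activating protein 21.3 kb after HCFC1, was higher in hypertonic replicate 2 than in replicate 1. It measured 0.346 and 0.438 normalised RPKM in the hypertonic libraries and 0.0155 and 0.0164 in the isotonic ones (log2 fold change 4.60 ± 0.78, SE, n = 2 per group). Between ARHGAP4 and HCFC1 lie 2 other genes on the strand. Z99714.1, a processed pseudogene 28.3 kb after HPS4, had 18 and 33 reads in the hypertonic libraries and 0 in both isotonic ones. PYY, the gut hormone peptide YY, measured 0.231 and 0.0849 normalised RPKM in the hypertonic libraries and 0.00896 in each isotonic library. Its active neighbour, 20.55 kb away with 1 other gene between, is a short U3 small nucleolar RNA entry (44025020 to 44025223). The lincRNA AC118757.1, 23.7 kb after RPRD1A, had 347 and 24 reads in the hypertonic libraries and 1 in each isotonic one, and LINC00880, 23.5 kb after the cyclin gene CCNL1, measured 0.237 and 0.216 normalised RPKM in the hypertonic and 0.0237 and 0.0262 in the isotonic libraries. The distances to HPS4 and RPRD1A start at their deposited ends, 26451480 and 35989824. Their GENCODE ends lie nearer, at 26443423 and 35984387. From the GENCODE end of RPRD1A, AC118757.1 would fall in the bin of 10 to 20 kb.

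At 30 to 40 kb, LINC01623 (chromosome 6, 28859625 to 28863350, minus strand), a lincRNA 39.7 kb after the ubiquitin ligase gene TRIM27, measured 1.88 and 3.81 normalised RPKM in the hypertonic libraries and 0.197 and 0.0553 in the isotonic ones. It stood above its neighbour in both hypertonic libraries, at 149 and 133%, and at 7.41 and 2.55% in the isotonic ones. GPR84, a receptor for medium-chain fatty acids 30.8 kb after the integrin gene ITGA5, had 20 and 15 reads in the hypertonic libraries and 0 in both isotonic ones. The antisense genes AC116158.2, TRIM31-AS1 and AC023509.2 had 425, 19 and 63 reads in hypertonic replicate 1, 30, 10 and 10 in hypertonic replicate 2, and at most 2 in any isotonic library. Except for LINC01623, these genes were higher in hypertonic replicate 1.

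At 40 to 50 kb, S100A14 (chromosome 1, 153614255 to 153616986, minus strand), a calcium-binding protein of epithelia, lies 44.8 kb after ILF2, with 3 other genes of the strand between them. It had 118 and 28 reads in the hypertonic libraries and 0 and 2 in the isotonic ones, or 1.82 and 0.402 normalised RPKM against 0 and 0.0377. GAL3ST2, a sulfotransferase gene 47.3 kb after ING5, measured 0.573 and 0.0458 normalised RPKM in the hypertonic libraries and 0.00894 and 0.0132 in the isotonic ones. PPEF2, a phosphatase gene of the retina 47.4 kb after SDAD1, showed the same order, 0.575 and 0.0432 against 0.0172 and 0.0109. In GAL3ST2 and PPEF2 hypertonic replicate 2 was nearer to the isotonic libraries than to hypertonic replicate 1. CDIPT-AS1, 43.2 kb after AC120114.5, had 33 and 11 reads in the hypertonic libraries and 2 and 0 in the isotonic ones, and AC034102.4 had 32 and 37 in the hypertonic and 8 and 3 in the isotonic ones. The distances to SDAD1 and AC120114.5 start at their deposited ends, 75949916 and 29820393. Their GENCODE ends lie nearer, at 75940950 and 29830627. From those ends PPEF2 and CDIPT-AS1 would fall in the bin of 30 to 40 kb.

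**Figure D4:**
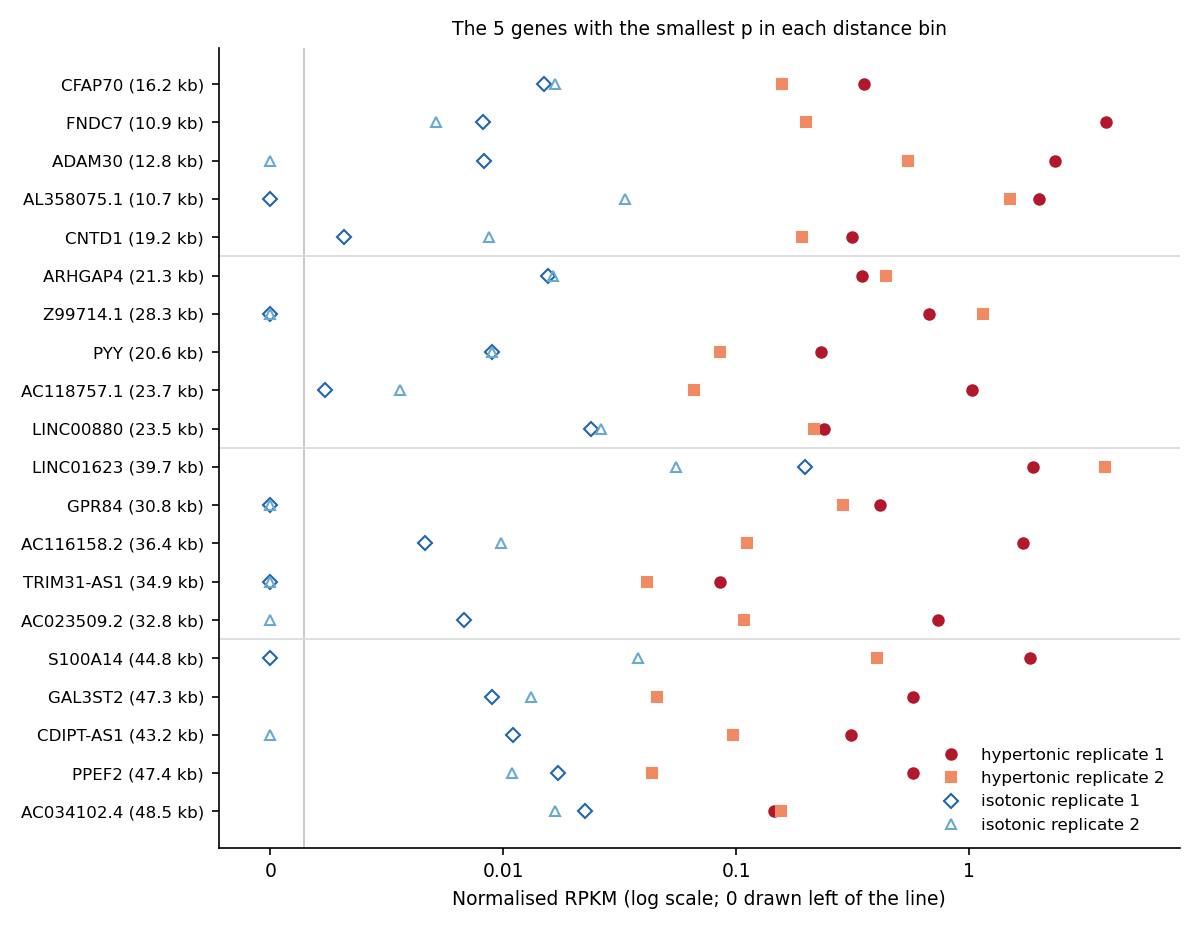
Normalised RPKM (x axis, log scale, with 0 drawn left of the line) of the 20 genes with the smallest p in their distance bin. The distance from the deposited end of the neighbour stands beside each name. Filled points are the hypertonic and open points the isotonic libraries, and in each gene every filled point lies right of every open one.

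Among the genes with a negative fold change and the smallest p, SMG1P5 and C1QTNF2 did not pass the test (edgeR adjusted p = 0.700 and 0.717). The pseudogene SMG1P5 measured 0.156 and 0.245 normalised RPKM in the hypertonic libraries and 0.393 and 0.305 in the isotonic ones, and C1QTNF2, a C1q-related secreted protein gene, 0.133 and 0.226 against 0.487 and 0.227. In both genes the hypertonic libraries lay below the isotonic ones, in C1QTNF2 by a narrow margin. Both had isotonic levels well above the medians over the 2342 genes, 0.0128 and 0.0157 normalised RPKM, and SMG1P5 has near-identical copies, so its counts are uncertain.

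Of the 4 neighbours with the most genes behind them, 3 had reads behind them mainly in hypertonic replicate 1. The 7 genes 13.1 to 36.1 kb after EPB41L5, a Y RNA gene and 6 pseudogenes of mitochondrial genes, together had 65 and 6 reads in the hypertonic libraries and 2 and 1 in the isotonic ones. The 6 mitochondrial pseudogenes 46.5 to 49.9 kb after BMPR2, a receptor of bone morphogenetic proteins, had 42 and 1 against 1 and 2. The 6 genes after the immunoglobulin light chain segment IGLV5-52 had 103 and 15 against 1 and 0, of which the pseudogene ASH2LP3 at 20.3 kb took 93 and 12 in the hypertonic libraries. These pseudogenes are near-identical copies of other genes, so reads may be split among copies and their counts are uncertain. The 6 genes after MT1E, metallothionein genes and pseudogenes at 11.6 to 49.0 kb (MT1A, MT1DP, MT1B, MT1F, MT1H and AC026461.4), had 0 and 1 reads in the hypertonic libraries and 0 in both isotonic ones. MT1E itself was at 5.02 and 4.88 normalised RPKM in the hypertonic and 8.89 and 4.94 in the isotonic libraries. Reads of these similar metallothionein genes may likewise be split or lost among copies, so their counts are uncertain too. The ends of MT1E and EPB41L5 printed above both hold AATAAA. Whether the end sequence relates to the reads behind a neighbour was not tested.

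**Figure D5:**
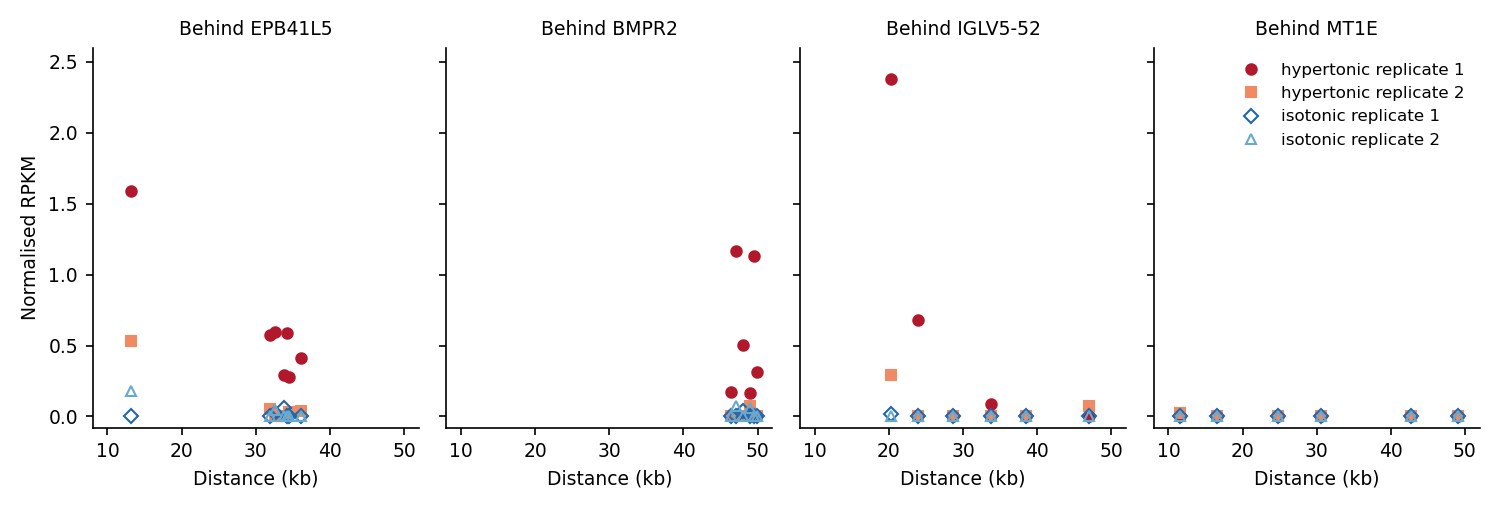
Normalised RPKM (y axis) against distance (x axis, kb) for the genes behind the 4 neighbours with the most of them; each point is 1 gene in 1 library. Behind EPB41L5, BMPR2 and IGLV5-52 hypertonic replicate 1 reaches 1.59, 1.16 and 2.38 normalised RPKM, and behind MT1E all points are at or near 0.

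By gene class, the summed fold over the isotonic mean was 1.99 and 1.21 in the hypertonic libraries for the 871 protein-coding genes, 3.71 and 1.72 for the 699 long noncoding genes, and 5.57 and 1.59 for the 559 pseudogenes. The 213 small RNA genes were at 11.1-fold and 4.29-fold, but with a median of 0 in all 4 libraries. By length the fold was 8.08 and 2.86 for the 767 genes under 1 kb and 1.95 and 0.991 for the 193 over 50 kb, where hypertonic replicate 2 was at the isotonic level. Short genes had the lower isotonic level, 0.0740 and 0.0822 normalised RPKM under 1 kb against 0.160 and 0.166 over 50 kb, so the fold was higher where the isotonic level was lower. The isotonic level of the neighbour made less of a difference, with folds of 2.09 and 1.29 behind neighbours of 1 to 2 RPKM (1428 genes), 2.64 and 1.24 at 2 to 5 RPKM (686 genes) and 2.46 and 1.47 at 5 RPKM and over (228 genes). With no other gene of the strand between them and the neighbour (1299 genes) the folds were 2.46 and 1.18, and with 1 or more between (1043 genes) 1.88 and 1.56.

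Genes with promoters rich in CG (observed over expected above 0.6, 353 genes) were at 0.377 and 0.269 normalised RPKM in the hypertonic libraries and 0.229 and 0.236 in the isotonic ones, 1.62-fold and 1.16-fold. Those with poorer promoters (344 genes) were at 0.379 and 0.156 against 0.115 and 0.121, 3.22-fold and 1.33-fold. The summed level was equal between the classes in hypertonic replicate 1, but the median was not: it was 0.268 and 0.311 normalised RPKM in the hypertonic libraries for CG-rich promoters and 0.149 and 0.0544 for poorer ones.

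In the test over the whole table, 1005 of the 2342 genes had enough counts to be tested and 1337 did not. No gene was called by edgeR at an adjusted p under 0.05 (0.0% of 21238 tested genes), nor by limma-voom, and the lowest adjusted p of edgeR was 0.192. At an unadjusted p under 0.05 in edgeR, 367 of the 1005 were higher in the hypertonic libraries, where the share over all tested genes was 8.89%, and 0 were lower (2.01% over all tested genes). DESeq2 called 160 higher (3.32% of all tested genes) and 0 lower (0.118%). By bin, the genes higher at an unadjusted p under 0.05 were 179 of 373 at 10 to 20 kb, 94 of 248 at 20 to 30 kb, 57 of 206 at 30 to 40 kb and 37 of 178 at 40 to 50 kb. Genes that were silent in isotonic medium could pass the count filter only through the hypertonic libraries, and the isotonic threshold is part of this contrast, so nothing is read from these counts. The calls depended on the hypertonic libraries kept. With 1 of them left out, the lone library is assumed to vary as the isotonic pair does. Without hypertonic replicate 2 edgeR called 554 higher and 9 lower (11.1 and 10.3% of all genes tested there), and without hypertonic replicate 1 it called 0, with 248 higher and 11 lower at an unadjusted p under 0.05 (11.8 and 10.8%). Without isotonic replicate 1 it called 1 (0.017% of all genes higher and 0.0085% lower), and without isotonic replicate 2 it called 2 (0.0165% higher). Without the filter on low counts it called 253 higher (2.33%), and with the replicate number as a block, which the labels do not support as a pairing, 82 higher (1.79%) and 0 lower (0.0188%).

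The choice was made on the deposited RPKM, whose scale differs from that of the normalised levels. At its edges, P3H4, just under 0.5 deposited RPKM, measured 0.368 and 1.45 normalised RPKM in the hypertonic libraries and 0.560 and 0.722 in the isotonic ones, and AC011816.2, just over it at 0.502 RPKM, 0.452 and 0.223 against 1.01 and 0.233. SH2D5, 10.0 kb after HP1BP3, measured 1.04 and 0.630 against 0.238 and 0.479, and AC008745.1, at 9.97 kb after SELENOW and so just outside, 0.311 and 0.724 against 0 in both isotonic libraries. MIR320C1, just inside 50 kb, was at 0 in all 4 libraries, and AC114489.1, just beyond it, measured 0.0505 and 0.0418 against 0.0652 and 0.0137. FOXE3, behind CMPK1 with a level just over 1 RPKM, and RN7SL34P, behind TGFB1 at 0.998 RPKM, were at 0 in all 4 libraries.

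Genes of the machinery that ends transcription were tested as a list of 28, comprising cleavage and polyadenylation factors, XRN2 and regulators of termination. All 28 were tested and edgeR called 0 at an adjusted p under 0.05, with 0 higher and 3 lower at an unadjusted p under 0.05, and DESeq2 called 0. Fitted fold changes were above 0 in 9 and below 0 in 19, with a median log2 fold change of -0.39, against 0.04 over all tested genes and -0.37 over active genes. CPSF6, a subunit of cleavage factor I, had the smallest p and measured 1.35 and 2.30 normalised RPKM in the hypertonic libraries and 3.93 and 4.48 in the isotonic ones (log2 fold change -1.20 ± 0.42, SE, n = 2 per group; edgeR adjusted p = 0.338). XRN2, the exonuclease that degrades the RNA past the cut, measured 3.25 and 2.54 against 4.67 and 4.89 (log2 fold change -0.72 ± 0.39; edgeR adjusted p = 0.588). The groups did not overlap in either gene, and the list's median lay near that of active genes in general.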

How the data were processed

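Nascent RNA was measured in 4 U2OS libraries, 2 at 300 mM and 2 at 150 mM sodium. The authors deposited 1 table per library, with an expected count (an estimated count of reads, not normalised) and an RPKM value for each gene and strand. Deposited RPKM is the count over gene length and over 1 constant per library. The tables have no header, and both units were read from their values. Per the submitters' processing notes, STAR 2.5.3a, bedtools 2.16.2, CASAVA 1.8.2 and Bowtie2 2.3.3 were used with hg38 or GRCh38; the role of each tool and the annotation release are not given in the sources used here. Coordinates are those of the deposited tables, counted from 1. The sense strand of each gene came from GENCODE release 29, whose start and end were identical for 82.0% of the genes studied. Bases shared by genes of 1 strand sit in separate shared-region entries (3.11 to 3.48% of counts), which were left out. Overlap and distance were judged on the entries that remained. A gene that shares bases with another could therefore pass, and a distance can start short of the GENCODE end of a neighbour. MT1B, for example, has a counted length of 597 bases between 56651899 and 56653204. With no molecular identifiers named, reads are not independent molecules.

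The mean deposited isotonic RPKM chose the genes and their neighbours. Expected counts were rounded and the 21238 sense entries that passed the default filter were tested with edgeR 4.0.16 (R 4.3.3; TMM, quasi-likelihood test, Benjamini-Hochberg adjustment at 0.05); the standard error is the log2 fold change over the square root of F. DESeq2 1.42.0 and voom from limma 3.58.1 were alternatives. Summed levels are unrounded counts per kb of summed length and per 1000000 TMM-scaled sense counts, computed with pandas 2.3.3 and scipy 1.17.1 and plotted with matplotlib 3.10.9. The neighbour search, summed level and fit were tested on simulated data. Members and lists were chosen with earlier results of these data known. Named genes are the 5 with the smallest p in each 10 kb bin, the 3 with a negative fold change and the smallest p, those behind the neighbours with the most genes (3 were planned, and ties gave 4), those next to each threshold, and DCP1A; sequences, CPSF6 and XRN2 were picked for illustration after their values were seen. Same-numbered replicates deviated together with r = 0.02 over 21238 genes, under 0.1, and no label pairs them. 1 of the genes the rule names is not reported here.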

Additional observations from a re-analysis of the deposited data

How the results depend on the processing

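For the 87 results recomputed, 768 of 979 values under another setting stayed within the replicate spread or on their side of the threshold. Of the rest, 111 moved, 19 reversed and 81 were stronger. The spread between the hypertonic libraries was of the same order as the difference, so this share does not measure robustness. For the levels, leaving out 1 hypertonic library gives back the value of the other, which lies within that spread by construction. As mean log2 ratios of the hypertonic libraries to isotonic, the values were 1.27, 0.72, 0.57 and 0.51 from the nearest to the farthest bin, and 0.30 before an active gene. With an isotonic limit of 0.25 RPKM they were 1.28, 1.17 and 0.78 from 20 kb on, 0.49 before an active gene and 1.20 (0.68 at 0.5 RPKM) for protein-coding genes, and sense minus opposite strand turned to 0.066 (0.31 in hypertonic replicate 1). With a limit of 1 RPKM they were 0.13 at 40 to 50 kb (hypertonic replicate 2: -0.072), -0.0069 beyond 100 kb (replicate 2: -0.16), 0.079 before an active gene and 1.93 for small RNA genes (main value 2.94). With neighbours of at least 2 RPKM they were 0.73 at 40 to 50 kb and 0.50 before an active gene, and in hypertonic replicate 2 the near over far contrast turned to -0.11 while sense over opposite strand in replicate 1 turned to 0.071; with at least 0.5 RPKM replicate 2 was at -0.030 beyond 100 kb. With genes chosen by isotonic replicate 1 and set against replicate 2 they were 0.23 at 20 to 30 kb (hypertonic replicate 2: -0.035), 0.17 before an active gene and 1.87 for small RNA genes, and replicate 2 was at -0.061 beyond 100 kb (-0.053 the other way round). Total counts gave 0.53 before an active gene and moved the median of all tested genes by 0.22. Medians over genes gave 2.73, 3.17, 3.84 and 4.46 by bin, so the near minus far contrast turned to -1.75 (-1.83 and -1.68 in hypertonic replicates 1 and 2), where the main value was 0.65; isotonic medians near 0 at 40 to 50 kb make that ratio large. With no other gene between, hypertonic replicate 2 was at -0.056 at 30 to 40 kb, -0.075 at 50 to 100 kb and -0.027 beyond. Calls numbered 0 in edgeR, 253 without a filter, 160 in DESeq2, and 0 to 563 with 1 library left out. With the replicate number as a block edgeR called 82 (1.79% of all tested genes were called higher), and as the numbers do not pair the samples this is given only for the record. With 1 library left out, the log2 fold change of P3H4 ran between -0.80 (without hypertonic replicate 2) and 1.15, and hypertonic replicate 2 beyond 100 kb between -0.0038 (without isotonic replicate 1) and 0.084. The cause of these changes was not tested. With 2 libraries a group, 1 of which carries most of the difference, and members often under 3 reads, single genes at the far end are limited by depth.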
